A study of Mus musculus with 18 samples.

Results

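The 40 lysosome and proton pump genes described here are 15 genes of the vacuolar proton pump (V-ATPase), 7 cysteine proteases, 4 other proteases or reductases, 8 hydrolase genes with their activator protein, and 6 genes of lysosomal membrane proteins and channels. They were chosen by gene symbol from a list of lysosomal functions, with earlier results of these data known. Their shares called, set beside those of all tested genes, are therefore descriptions. All 40 symbols were present among 54532 genes of the count table, and all 40 were among the 14876 genes that passed the filter on low counts and were tested.

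RNA was sequenced from 18 libraries of plasmacytoid dendritic cells (pDCs), the dendritic cells known for type I interferon secretion. Bone marrow of wild-type C57BL/6 mice was cultured with Flt3 ligand at 80 ng/mL for 7 days, and pDCs were enriched on beads that bind B220. The labels give a routine purity of 80% by a B220+ CD11b- CD11cint gate. Cells received imiquimod, a small-molecule agonist of Toll-like receptor 7, at 2.5 µg/mL for 6 or 16 h, or a vehicle.

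The groups, each with 3 libraries, were imiquimod 6 h, imiquimod 16 h, vehicle 6 h, vehicle 16 h, vehicle 0 h and untreated 0 h. The vehicle is given in the series' design text as Limulus amebocyte lysate (LAL), and all 6 groups shared strain, genotype and culture. No label ties the libraries of a group to separate mice or cultures, so the p-values reflect variation among libraries only, and that variation may be technical. Total counts were 10609741 to 13447018 per library. Levels are CPM (counts relative to library size) scaled by TMM, a normalisation that assumes most genes unchanged, and a gene was called at an edgeR Benjamini-Hochberg adjusted p under 0.05 over all tested genes. The pDC genes Siglech, Tcf4, Irf8 and Runx2 averaged 169, 732, 1622 and 269.8 CPM in imiquimod 16 h libraries, their lowest group means, and 1636, 1611, 2378 and 1194 CPM in vehicle 16 h libraries. They are 4 of 12 pDC markers listed, of which 9 were lower at 16 h, 1 was higher and 2 were not called. Ly6d was the higher marker, at 596 CPM with imiquimod and 152 CPM with vehicle. At 6 h Tcf4 averaged 1665 CPM with imiquimod and 1349 CPM with vehicle. In bulk samples, fewer cells of a type and less RNA per cell cannot be told apart.

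Lysosomes are acidified by the V-ATPase, a rotary machine in which a soluble V1 sector burns ATP and turns a membrane-embedded V0 sector that carries protons. In the acid lumen, cathepsins and legumain cut proteins, including, in mouse, the luminal domains of nucleic acid-sensing Toll-like receptors and antigens bound for MHC class II, while other hydrolases degrade sugars and lipids. Many lysosomal genes carry a palindromic E-box in their promoters that the MiT family factors TFEB and TFE3 bind, an arrangement called the CLEAR network.

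Promoter sequence was examined because this E-box is the feature that lysosomal genes are best known to share. RefSeq windows (GRCm38.p6, 250 bases before to 50 bases after each annotated start) were found for 33 of the 40 members. The motif CACGTG, which reads the same on both strands, was present in 14 of the 33 (42.42%), against 8.09% of 27025 genes with a window. The longer palindrome TCACGTGA, which contains CACGTG, was present in 7 of 33 members (21.21%), against 1.12% of genes. The comparison genes were taken whether or not they were expressed here, while all members passed the filter on low counts. Genes with several windows were counted if any window held the motif, and Lgmn and Ctsa held CACGTG in 1 of 2. Shown here, for 4 members that hold CACGTG in their single window, are 150 bases before the RefSeq start that lie outside every exon of GENCODE M21, read 5′ to 3′ on the strand of the gene, with CACGTG or TCACGTGA in capitals. Lamp1, Gaa and Atp6v1a were higher with imiquimod at both times, and Mcoln2 was lower at both times. They lie at chr8:13159011-13159160 (plus strand), chr11:119267737-119267886 (plus), chr16:44139306-44139455 (minus) and chr3:146150024-146150173 (plus). The Lamp1 and Gaa stretches end at the first base before the GENCODE gene, while those of Atp6v1a and Mcoln2 lie inside the gene, downstream of its outermost annotated start.
Lamp1: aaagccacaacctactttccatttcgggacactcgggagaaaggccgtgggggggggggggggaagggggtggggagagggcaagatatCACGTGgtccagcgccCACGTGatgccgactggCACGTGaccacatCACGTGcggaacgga
Gaa: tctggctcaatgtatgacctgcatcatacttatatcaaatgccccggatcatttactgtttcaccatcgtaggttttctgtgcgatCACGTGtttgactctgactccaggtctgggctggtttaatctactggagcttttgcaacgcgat
Atp6v1a: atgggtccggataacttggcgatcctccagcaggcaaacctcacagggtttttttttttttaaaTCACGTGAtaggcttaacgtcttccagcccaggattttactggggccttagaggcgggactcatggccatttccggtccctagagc
Mcoln2: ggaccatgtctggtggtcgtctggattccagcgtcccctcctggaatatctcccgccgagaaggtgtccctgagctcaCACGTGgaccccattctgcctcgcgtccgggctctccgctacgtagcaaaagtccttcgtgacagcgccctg
The Lamp1 stretch held CACGTG 4 times, beginning at -61, -45, -28 and -15 from the start, the most of any member, and the other 3 stretches held it once each. Members with the motif moved in both directions. At 6 h, 8 of the 14 members with CACGTG were higher with imiquimod, 5 were lower and 1 was not called, and of the 19 members without it 11 were higher and 8 lower. At 16 h the motif holders divided into 6 higher, 6 lower and 2 not called, and the others into 7 higher, 9 lower and 3 not called. Of all tested genes, 37.7% were called higher and 39.2% lower at 6 h, and 39.1% and 38.1% at 16 h. A match to these letters is a description of sequence and does not show binding.

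With imiquimod at 6 h, 23 of the 40 members were higher than in the vehicle of the same time, 15 were lower and 2 were not called. The share called, 95%, stands beside 76.9% of all tested genes. Of all tested genes 37.7% were called higher and 39.2% lower. Changes of at least 2-fold were called in 5 members higher and 7 lower, against 16.2% and 19.3% of all genes. The members' median log2 fold change was 0.24, and that of all tested genes -0.04. This count depends on scaling: with library totals in place of TMM, 14 members were higher and 20 lower, and the share of higher genes among all calls was 31.1% in place of 49.0%. TMM factors were 0.8174 to 0.8374 in the imiquimod 6 h libraries and 1.006 to 1.066 in all others, and library totals moved the median of all genes at 6 h to -0.39. Changes below are relative to the TMM scale.

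At 16 h, 16 members were higher with imiquimod, 19 were lower and 5 were not called, which is 87.5% called, against 77.2% of all genes. At least 2-fold were 5 higher and 7 lower, against 16.6% and 16.8% of all genes. The members' median was -0.07, and that of all genes -0.00. Of all tested genes 39.1% were called higher and 38.1% lower. Both times together gave 15 members higher at both, 13 lower at both, 5 higher at 6 h and lower at 16 h, 3 higher at 6 h and not called at 16 h, 2 lower at 6 h and not called at 16 h, and 1 each called only at 16 h, higher (Atp6v0e) or lower (Ctsh). The 2 effects use different libraries of imiquimod and of vehicle.

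**Figure D1:**
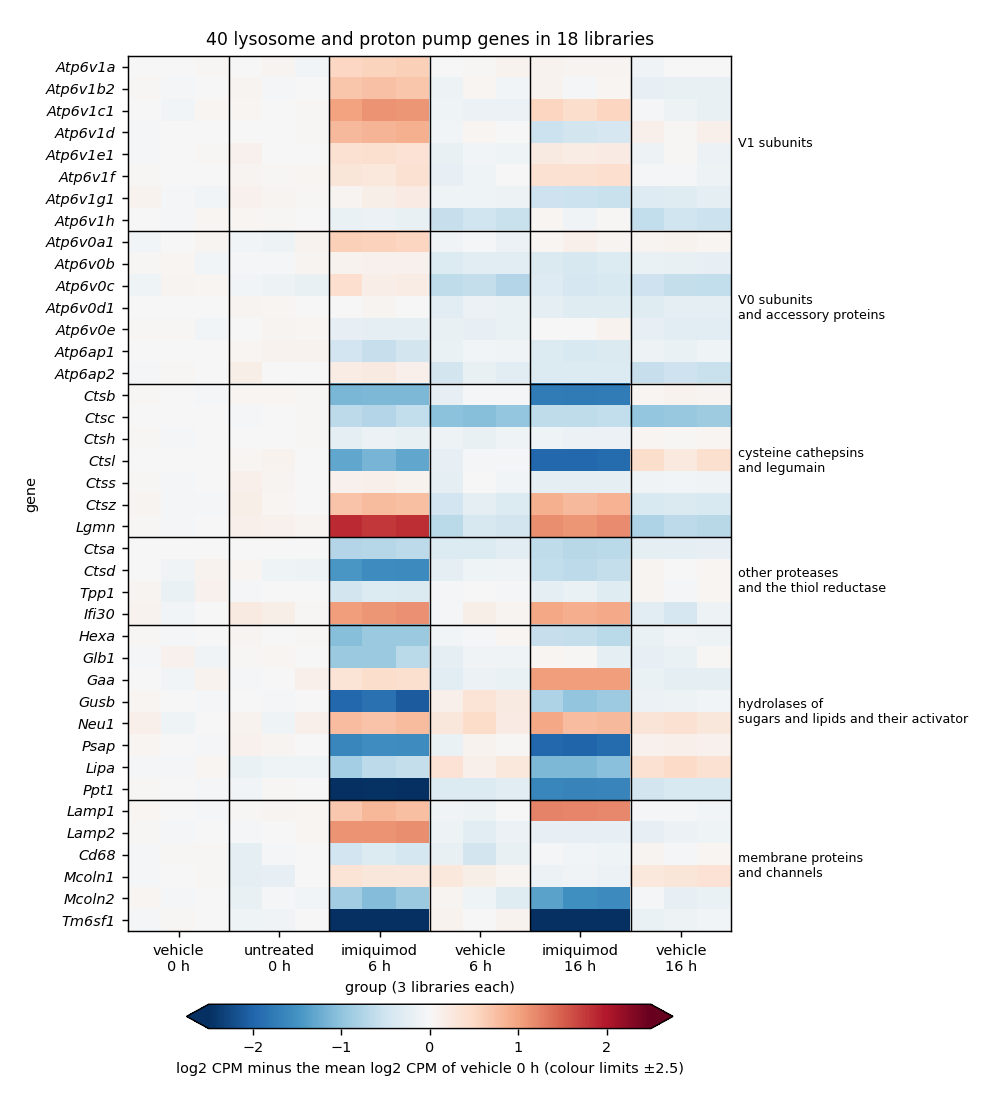
Level of the 40 members in each of the 18 libraries, as log2 CPM minus the gene's mean log2 CPM in vehicle 0 h, by role (rows) and group (columns, 3 libraries each). Red is above and blue below vehicle 0 h, with colour limits at 2.5. The imiquimod columns carry most of the colour, 7 of 8 V1 subunits are above vehicle 0 h in imiquimod 6 h, and most hydrolases are blue at both times.

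Summed over all 40 members, the level was 8906 ± 121 CPM in imiquimod 6 h libraries and 12173 ± 746 CPM in vehicle 6 h libraries (SD, n = 3 each). At 16 h it was 7218 ± 97.5 CPM with imiquimod and 12982 ± 67.0 CPM with vehicle. Psap alone averaged 1999 ± 42.6 CPM with imiquimod and 5984 ± 531 CPM with vehicle at 6 h. Without Psap the sum of the other 39 members was 6907 ± 79.1 CPM in imiquimod 6 h libraries and 6189 ± 222 CPM in vehicle 6 h libraries, and 5677 ± 67.4 CPM in imiquimod 16 h libraries and 6458 ± 41.2 CPM in vehicle 16 h libraries. The 15 proton pump members summed to 1955 ± 13.6 CPM with imiquimod and 1399 ± 46.9 CPM with vehicle at 6 h. Their sums at 16 h were 1461 ± 20.7 CPM with imiquimod and 1371 ± 6.82 CPM with vehicle. In vehicle 0 h libraries the sum was 6908 ± 72.8 CPM without Psap and 1576 ± 2.06 CPM for the pump members. On this scale the 39-member sum with imiquimod at 6 h lay near vehicle 0 h, and vehicle 6 h lay below both. The pump sum with imiquimod at 16 h was below that of vehicle 0 h. With library totals in place of TMM, the sum without Psap at 6 h was the lower with imiquimod, 5702 ± 21.7 CPM against 6513 ± 161 CPM with vehicle. The 15 pump members then summed to 1614 ± 12.8 CPM with imiquimod and 1472 ± 35.2 CPM with vehicle at 6 h. No tested pump subunit outside the members was called higher at either time, as given below. These sums are descriptions and were not tested.

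All 8 V1 subunit genes were called higher with imiquimod at 6 h, but with library totals 5 were called higher and 3 were not, Atp6v1g1 with a reversed sign (-0.09), Atp6v1f (0.08) and Atp6v1h (0.03). On the TMM scale their log2 fold changes were 0.26 to 1.21, with a median of 0.51. Atp6v1c1, the C subunit whose binding holds the V1 and V0 sectors together, had the largest V1 rise (1.21, SE 0.05). It had 146, 158 and 157 CPM in imiquimod 6 h libraries, against 67.5, 66.1 and 65.6 CPM in vehicle 6 h libraries. Every imiquimod library lay above every vehicle library. The catalytic A subunit Atp6v1a rose by 0.52, SE 0.04 on the log2 scale and the nucleotide-binding B2 subunit Atp6v1b2 by 0.75, SE 0.04.

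By 16 h the V1 genes no longer moved together. Of the 8, 6 remained higher and 2 were lower with imiquimod, and the median log2 fold change was 0.26. Atp6v1d, the D subunit of the central rotor shaft, changed direction. At 6 h it had 211, 218 and 224 CPM with imiquimod, against 115, 125 and 122 CPM with vehicle (0.85, SE 0.04). At 16 h it had 83.8, 87.7 and 90.8 CPM with imiquimod, against 132, 124 and 133 CPM with vehicle (-0.57, SE 0.04). The groups did not overlap at either time, and the difference of the effects (16 h minus 6 h) was -1.42, SE 0.06, edgeR adjusted p = 6.65e-36. Atp6v1g1, a stalk subunit, was also lower at 16 h (-0.25, SE 0.05), and 12.54% of its 75-base windows are shared with 2 annotated copies. Atp6v1h, a regulatory subunit, had log2 fold changes of 0.38, SE 0.04 at 6 h and 0.54, SE 0.04 at 16 h. The stalk subunit Atp6v1e1 (0.50, SE 0.05 and 0.28, SE 0.05) and the F subunit Atp6v1f of the rotor (0.43, SE 0.06 and 0.46, SE 0.06) were also higher at both times, as were Atp6v1a (0.12, SE 0.04 at 16 h), Atp6v1b2 (0.24, SE 0.04) and Atp6v1c1 (0.63, SE 0.05).

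Among the 7 V0 and accessory genes, 5 were higher with imiquimod at 6 h, 1 was lower and 1 was not called, with a median log2 fold change of 0.40. With library totals these counts were 3, 3 and 1, and Atp6v0d1, the d subunit, changed sign (0.21, SE 0.04 with TMM and -0.14 with library totals), and was not called at 16 h (-0.01, SE 0.04). Atp6v0c, the proteolipid of the proton-carrying ring, had 50.2, 42.1 and 42.8 CPM in imiquimod 6 h libraries, against 24.2, 24.99 and 22.7 CPM in vehicle 6 h libraries (0.91, SE 0.07). Its groups did not overlap at 6 h, and 9.24% of its 75-base windows are shared with 2 pseudogenes. Its smaller rise at 16 h (0.20, SE 0.07) lost its call without imiquimod 16 h replicate 1 (log2 fold change 0.17, edgeR adjusted p = 0.0576). Atp6v0a1, which forms part of the proton path, rose at 6 h (0.65, SE 0.04) and had a log2 fold change of 0.01, SE 0.04 at 16 h, not called.

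Atp6ap1, an accessory protein of pump assembly, was the pump gene among the members that was lower at both times. It had 111, 103 and 111 CPM with imiquimod, against 138, 147 and 146 CPM with vehicle at 6 h (-0.40, SE 0.04). At 16 h it had 121, 118 and 119 CPM with imiquimod, against 142, 138 and 142 CPM with vehicle (-0.23, SE 0.04). No imiquimod library reached the lowest vehicle library of its time. Its partner Atp6ap2, also known as the prorenin receptor, was higher at both times (0.49, SE 0.04 and 0.20, SE 0.05). Atp6v0b, a second ring proteolipid, was higher at 6 h (0.40, SE 0.04, but 0.05 and not called with library totals) and lower at 16 h (-0.18, SE 0.04). Atp6v0e, a small V0 subunit, was not called at 6 h (-0.03, SE 0.05, but called lower at -0.38 with library totals) and was higher at 16 h (0.27, SE 0.04). In all, 3 V0 and accessory genes were higher at 16 h, 2 were lower and 2 were not called.

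**Figure D2:**
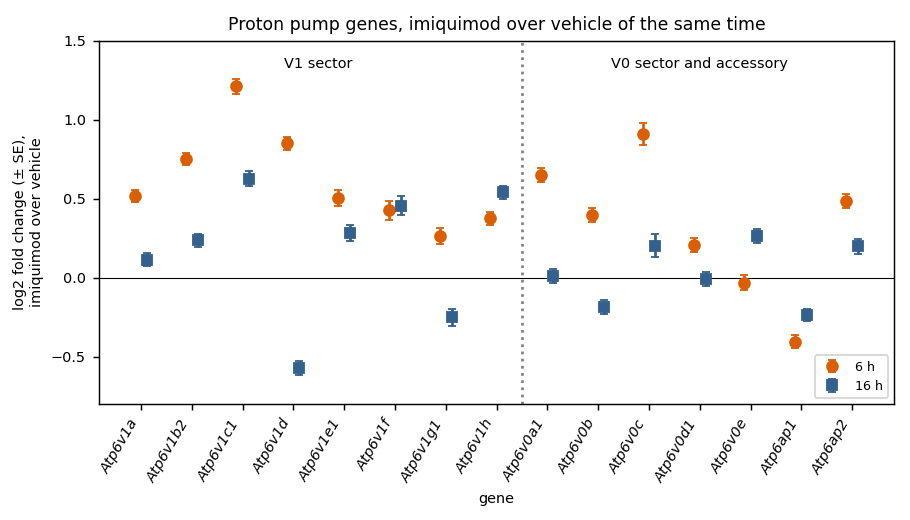
Log2 fold change, imiquimod over vehicle of the same time, of 15 proton pump genes at 6 h (circles) and 16 h (squares), with bars of 1 SE. All 8 V1 genes lie above 0 at 6 h on the TMM scale (Atp6v1g1 at -0.09 with library totals), and Atp6v1d lies at 0.85 at 6 h and -0.57 at 16 h.

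The cysteine proteases moved apart from each other. At 6 h, 4 of 7 were higher with imiquimod, 2 were lower and Ctsh was not called, and at 16 h 3 were higher and 4 lower. Lgmn, the asparaginyl endopeptidase legumain, which also processes cathepsins, had the largest rise of all 40 members. It had 463, 431 and 460.5 CPM in imiquimod 6 h libraries, against 80.1, 96.6 and 92.9 CPM in vehicle 6 h libraries. The 16 h values were 285, 275 and 289 CPM with imiquimod, against 74.4, 81.2 and 78.6 CPM with vehicle. Vehicle 0 h libraries had 131, 125 and 127 CPM and untreated libraries 139, 137 and 133 CPM. All 6 imiquimod libraries lay above all 12 others. The log2 fold change was 2.33, SE 0.04 at 6 h and 1.86, SE 0.04 at 16 h, edgeR adjusted p = 2.94e-54 and 5.28e-47.

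Ctsb and Ctsl, the lysosomal endopeptidases cathepsin B and cathepsin L, were lower at both times and further from vehicle at 16 h. Ctsb had 546, 551 and 551 CPM in imiquimod 6 h libraries, against 1050.5, 1170.2 and 1187 CPM in vehicle 6 h libraries. At 16 h Ctsb had 361, 357 and 358 CPM with imiquimod, against 1244, 1287 and 1266 CPM with vehicle. At 0 h it had 1233, 1210.2 and 1181 CPM in vehicle libraries and 1256, 1254 and 1235 CPM in untreated libraries. The imiquimod libraries were the 6 lowest of the 18, and the 3 libraries of each imiquimod group differed little. Ctsb's log2 fold change was -1.05, SE 0.03 at 6 h and -1.82, SE 0.03 at 16 h, a difference of -0.77, SE 0.05 (edgeR adjusted p = 4.54e-25). Part of the Ctsb exons (12.79% of their length) lies opposite exons of Fdft1, which was higher with imiquimod (2.18 and 0.75), and the strand setting of the counting is not given in the sources used here.

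Ctsl had 151, 167 and 152 CPM in imiquimod 6 h libraries, against 322, 367 and 365 CPM in vehicle 6 h libraries. Its 16 h levels were 96.05, 95.1 and 98.2 CPM with imiquimod, against 507, 444 and 491 CPM with vehicle. Libraries at 0 h had 373, 377 and 369 CPM with vehicle and 385, 399 and 369.9 CPM untreated. No imiquimod library overlapped any other library, and vehicle 16 h was above vehicle 0 h (0.37, SE 0.04). Ctsl's log2 fold change was -1.16, SE 0.05 at 6 h and -2.32, SE 0.05 at 16 h, and the effects differed by -1.15, SE 0.07 (edgeR adjusted p = 3.75e-15). Ctsl overlaps the models Gm49230 and, on the other strand, Gm47123, which had 0 counts in all 18 libraries, so its level is uncertain.

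Of the remaining cysteine proteases, Ctsz, a carboxypeptidase, rose at both times (1.10, SE 0.04 and 1.23, SE 0.04). Ctsc, a dipeptidyl peptidase that activates granule serine proteases, was higher at both times (0.35, SE 0.04 and 0.30, SE 0.04), although with library totals the value at 6 h was 0.00 and not called. Ctss, the protease best known for cutting the invariant chain of MHC class II, was higher at 6 h (0.19, SE 0.04) and lower at 16 h (-0.15, SE 0.04). Its rise at 6 h fell to 0.10 without vehicle 6 h replicate 1 and changed sign with library totals (-0.16). Ctsh, an aminopeptidase, was lower at 16 h (-0.17, SE 0.03) and not called at 6 h (-0.05, SE 0.03), although with library totals it was called lower there (-0.40).

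Per kilobase of exon, the mix of the 7 cysteine protease transcripts shifted. Ctsb made up 7.03% ± 0.03 of their summed CPM per kilobase in imiquimod 6 h libraries and 18.9% ± 0.44 in vehicle 6 h libraries (SD, n = 3 each). At 16 h it made up 5.33% ± 0.08 with imiquimod and 20.1% ± 0.26 with vehicle. Lgmn moved the other way, with 15.1% ± 0.70 in imiquimod 6 h libraries and 3.90% ± 0.11 in vehicle 6 h libraries, and 10.9% ± 0.11 in imiquimod 16 h libraries and 3.24% ± 0.13 in vehicle 16 h libraries. Ctsz made up 37.7% ± 0.52 in imiquimod 16 h libraries, the largest share there, and 17.2% ± 0.10 in vehicle 16 h libraries. In vehicle 16 h libraries Ctss had the largest share, 39.9% ± 0.23, against 33.6% ± 0.45 in imiquimod 16 h libraries. Exon length here joins the exons of all annotated transcripts of a gene. It was 1358 bases for Ctss and 1441 for Ctsz, but 6051 for Ctsb and 6489 for Ctsl. The size and order of the shares between genes therefore depend on the annotation, and the sum includes Ctsl, whose level is uncertain. Shares within a sum are not independent of each other and were not tested.

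**Figure D3:**
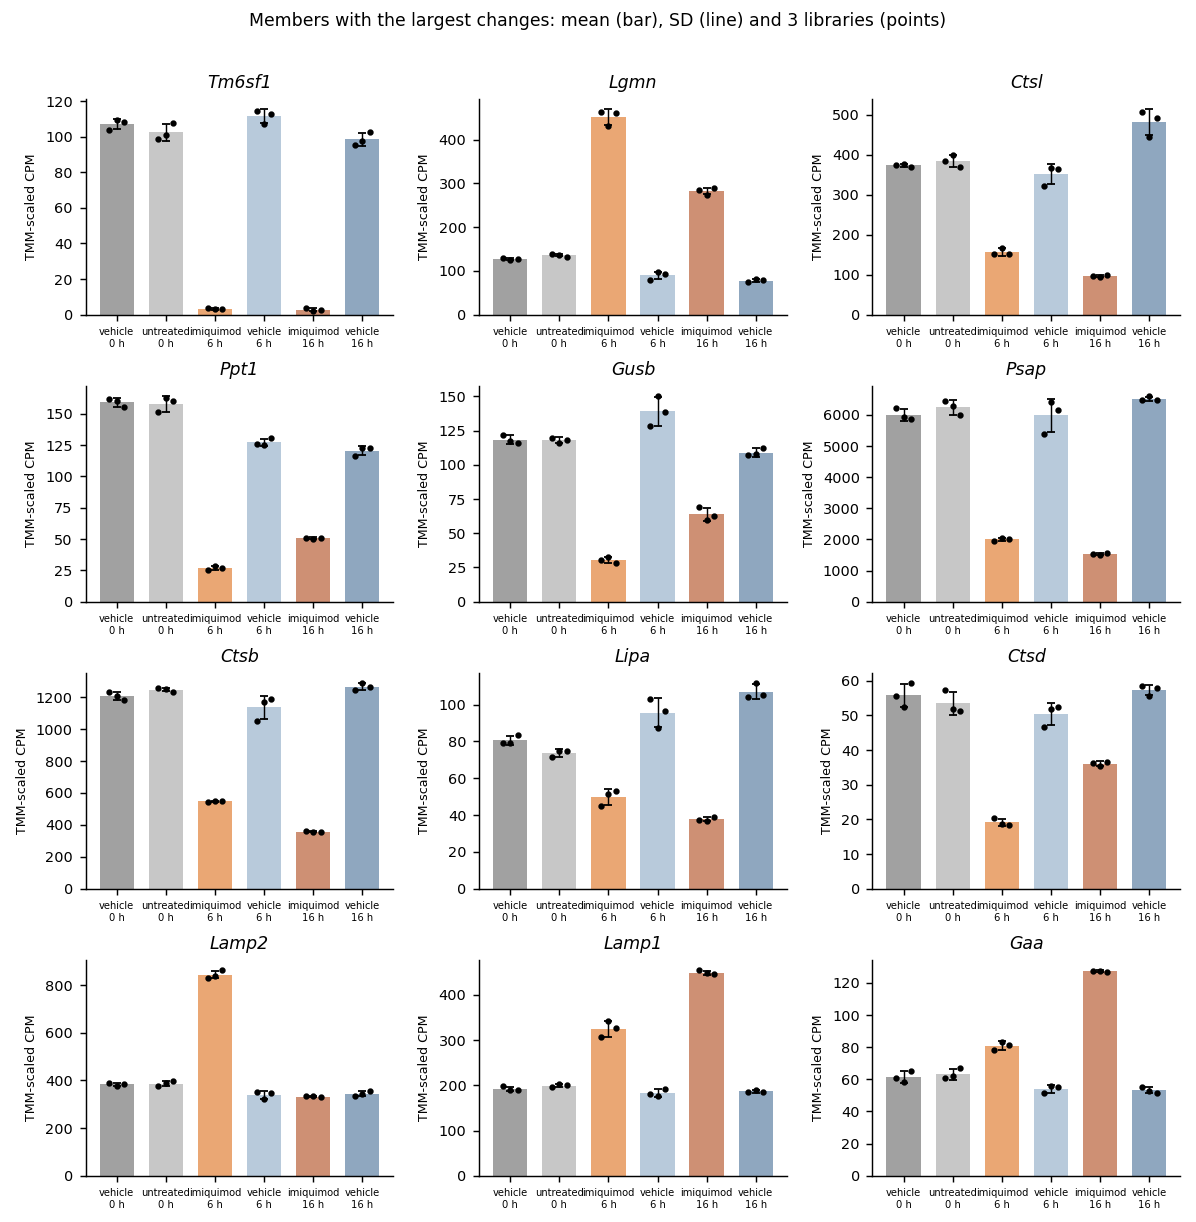
CPM of the 12 members with the largest changes among those called with a mean of at least 10 CPM. Bars are group means, lines SD and points the 3 libraries. Groups are vehicle 0 h, untreated 0 h, imiquimod 6 h, vehicle 6 h, imiquimod 16 h and vehicle 16 h. Lgmn, Lamp1 and Gaa are higher with imiquimod at both times, Lamp2 only at 6 h, and the other 8 lower at both.

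Of the 4 other proteases and reductases, Ifi30 was higher and 3 were lower at both times. Ifi30, the thiol reductase GILT that unfolds antigens by reducing disulfides, had 127, 132 and 135 CPM in imiquimod 6 h libraries, against 59.03, 67.6 and 64.2 CPM in vehicle 6 h libraries (1.04, SE 0.05). By 16 h it had 119, 115 and 118 CPM with imiquimod, against 51.3, 45.6 and 55.95 CPM with vehicle (1.20, SE 0.05). Neither time showed overlap between the groups.

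Ctsd, the aspartic protease cathepsin D, was lower with imiquimod, more so at 6 h. It had 20.4, 18.8 and 18.5 CPM in imiquimod 6 h libraries, against 46.7, 51.98 and 52.4 CPM in vehicle 6 h libraries. After 16 h it had 36.3, 35.4 and 36.6 CPM with imiquimod, against 58.5, 55.7 and 57.9 CPM with vehicle. Its 0 h values were 55.6, 52.5 and 59.2 CPM with vehicle and 57.4, 51.9 and 51.3 CPM untreated. All imiquimod libraries lay below all others. The log2 fold change was -1.39, SE 0.07 at 6 h and -0.67, SE 0.06 at 16 h, with a difference of 0.72, SE 0.09 (edgeR adjusted p = 3.93e-10). Of the 75-base windows of Ctsd, 31.29% are shared with Gm49369, an overlapping model with 0 counts in all libraries, so the level of Ctsd is uncertain. The carboxypeptidase Ctsa, which protects Glb1 and Neu1 in a complex, was lower at both times (-0.39, SE 0.04 and -0.45, SE 0.03), and 17.37% of its exon length lies opposite Pltp or Neurl2. Tpp1, a tripeptidyl peptidase, had log2 fold changes of -0.36, SE 0.05 and -0.25, SE 0.05, both called.

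Hydrolases had the lowest median of the 6 role groups at both times. At 6 h, 6 of 8 were lower with imiquimod and 2 were higher, with a median log2 fold change of -0.94. At 16 h, 5 were lower, 2 were higher and Glb1 was not called, with a median of -0.63. With library totals 6 were lower, 1 was higher and 1 was not called at 6 h.

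Psap encodes prosaposin, which is cut into the saposins that present sphingolipids to their hydrolases. Per kilobase it was the most abundant member in every group, with 729 ± 15.5 CPM per kilobase in imiquimod 6 h libraries and 2181 ± 193 in vehicle 6 h libraries (SD, n = 3 each). It had 1952, 2036 and 2010.1 CPM in imiquimod 6 h libraries, against 5388, 6406 and 6158 CPM in vehicle 6 h libraries. At 16 h its levels were 1548, 1502 and 1573 CPM with imiquimod, against 6495, 6600.5 and 6479 CPM with vehicle. The highest imiquimod library had 2036 CPM and the lowest of all others 5388 CPM. Vehicle 0 h had 6228, 5939 and 5867 CPM and untreated 0 h 6456, 6282 and 5993 CPM. The log2 fold change was -1.58, SE 0.04 at 6 h and -2.08, SE 0.04 at 16 h, edgeR adjusted p = 8.7e-35 and 1.88e-39.

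Gusb, beta-glucuronidase, and Ppt1, a thioesterase that removes palmitate from proteins, fell most at 6 h and less at 16 h. Gusb had 30.5, 32.3 and 28.1 CPM in imiquimod 6 h libraries, against 128, 149.99 and 138 CPM in vehicle 6 h libraries. At 16 h Gusb had 69.1, 59.3 and 62.8 CPM with imiquimod, against 107, 108 and 112 CPM with vehicle. Its 0 h libraries had 122, 117 and 116 CPM with vehicle and 119.9, 116 and 118 CPM untreated. Gusb was lower than in any other library in all 6 imiquimod libraries, and the 6 h ones were the lowest. The log2 fold change of Gusb was -2.20, SE 0.06 at 6 h and -0.77, SE 0.05 at 16 h, the widest positive difference of effects among members (1.42, SE 0.08, edgeR adjusted p = 2.57e-26).

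Ppt1 had 25.6, 28.6 and 27.1 CPM in imiquimod 6 h libraries, against 126, 125 and 130.5 CPM in vehicle 6 h libraries. At 16 h Ppt1 had 51.2, 50.02 and 50.8 CPM with imiquimod, against 116, 123 and 122 CPM with vehicle. At 0 h Ppt1 had 161, 161 and 155 CPM in vehicle libraries and 151, 163 and 159.8 CPM in untreated ones. The imiquimod groups overlapped neither each other nor any other group. Its log2 fold change was -2.23, SE 0.05 at 6 h and -1.25, SE 0.05 at 16 h, a difference of 0.98, SE 0.07 (edgeR adjusted p = 1.49e-20).

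Lipa, lysosomal acid lipase, which frees cholesterol from its esters, had 44.9, 51.5 and 53.3 CPM in imiquimod 6 h libraries, against 103, 87.4 and 96.5 CPM in vehicle 6 h libraries. At 16 h its values were 37.1, 36.9 and 38.95 CPM with imiquimod, against 104, 112 and 105 CPM with vehicle. Vehicle 0 h libraries had 79.3, 79.1 and 83.2 CPM and untreated ones 71.4, 74.8 and 74.9 CPM. Imiquimod libraries were below all others, while the vehicle itself rose over time (0.25, SE 0.05 at 6 h and 0.41, SE 0.05 at 16 h against vehicle 0 h). The log2 fold change of imiquimod over vehicle was -0.94, SE 0.06 at 6 h and -1.51, SE 0.06 at 16 h.

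Gaa, the acid alpha-glucosidase that degrades glycogen, ran against the group. It had 77.9, 83.3 and 81.6 CPM in imiquimod 6 h libraries, against 51.5, 55.8 and 55.1 CPM in vehicle 6 h libraries. The later levels, at 16 h, were 128, 128 and 127 CPM with imiquimod, against 55.1, 52.7 and 51.7 CPM with vehicle. Its levels at 0 h were 60.8, 58.4 and 65.4 CPM with vehicle and 60.6, 62.2 and 67.1 CPM untreated. The 16 h imiquimod libraries were the highest and nearly equal. Gaa's log2 fold change was 0.58, SE 0.05 at 6 h and 1.26, SE 0.05 at 16 h, with a difference of 0.68, SE 0.07 (edgeR adjusted p = 1.47e-13). Neu1, a sialidase, was also higher at both times (0.44, SE 0.08 and 0.52, SE 0.08), and its call at 6 h was lost with library totals (0.09). Hexa, the alpha subunit of beta-hexosaminidase, was lower at both times (-0.95, SE 0.04 and -0.49, SE 0.04). Glb1, beta-galactosidase, was lower at 6 h (-0.70, SE 0.08) and had 0.07, SE 0.07 at 16 h, not called.

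Membrane proteins held both the strongest fall of the list and a pair of rising glycoproteins. At 6 h 3 of 6 were higher and 3 lower with imiquimod, and at 16 h 1 was higher, 3 were lower and 2 were not called. Tm6sf1, a multipass protein of the lysosomal membrane, nearly disappeared. It had 3.53, 3.10 and 2.95 CPM in imiquimod 6 h libraries, against 114, 107 and 113 CPM in vehicle 6 h libraries. At 16 h it had 3.80, 2.33 and 2.56 CPM with imiquimod, against 95.5, 97.4 and 103 CPM with vehicle. Those values rest on 30 to 52 counts in an imiquimod library and 1039 to 1471 counts in a vehicle library of those times. At 0 h it had 104, 109 and 108 CPM with vehicle and 98.6, 101 and 108 CPM untreated, so no imiquimod library came near any other. The log2 fold change was -5.12, SE 0.09 at 6 h and -5.07, SE 0.09 at 16 h, edgeR adjusted p = 4.3e-62 and 2.81e-62. The overlapping model Gm45867, on the same strand, fell by 5.14 and by 5.47.

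Lamp1 (promoter stretch above) and Lamp2, the heavily glycosylated proteins that line the lysosomal membrane, separated at 16 h. Lamp1 had 306, 343 and 326 CPM in imiquimod 6 h libraries, against 182, 176 and 193 CPM in vehicle 6 h libraries. At 16 h Lamp1 had 454, 448 and 445 CPM with imiquimod, against 186, 189.6 and 184 CPM with vehicle. Lamp1 had 198, 190.3 and 190.1 CPM in vehicle 0 h and 196, 203 and 200.01 CPM in untreated libraries. Its imiquimod libraries were the 6 highest, and those of 16 h lay above those of 6 h. Lamp1's log2 fold change was 0.82, SE 0.04 at 6 h and 1.27, SE 0.04 at 16 h, with a difference of 0.44, SE 0.05 (edgeR adjusted p = 4.55e-12).

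Lamp2 had 830.4, 840.1 and 862 CPM in imiquimod 6 h libraries, against 349.7, 320.3 and 347 CPM in vehicle 6 h libraries. At 16 h Lamp2 had 334, 333 and 331 CPM with imiquimod, against 334, 345 and 355 CPM with vehicle. Lamp2 had 389, 378 and 383 CPM in vehicle 0 h and 375, 389 and 396 CPM in untreated libraries. The 6 h imiquimod libraries stood apart from all others, and the 16 h groups overlapped. Lamp2's log2 fold change was 1.32, SE 0.03 at 6 h and -0.05, SE 0.03 at 16 h, and the effects differed by -1.37, SE 0.05 (edgeR adjusted p = 3.07e-40).

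The channels Mcoln1 and Mcoln2, which release calcium and other cations from lysosomes, were lower at 16 h (-0.43, SE 0.06 and -1.34, SE 0.12). Mcoln2 was also lower at 6 h (-0.85, SE 0.12). It averaged under 10 CPM over the imiquimod and vehicle libraries of 16 h, a low level for a member. Mcoln1 was higher at 6 h by a small margin (0.14, SE 0.06) that changed sign with library totals (-0.21) and lost its call without vehicle 6 h replicate 2 (0.11) or 3 (0.07) or imiquimod 6 h replicate 1 (0.12). Cd68, a LAMP-family glycoprotein used as a macrophage marker, was called lower at 6 h (-0.15, SE 0.06), with groups that overlapped, and lay at -0.50 with library totals. That call was lost without vehicle 6 h replicate 1 (-0.12) or 3 (-0.12), or without imiquimod 6 h replicate 1 (-0.12) or 3 (-0.13), and the value was -0.26 without vehicle 6 h replicate 2.

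**Figure D4:**
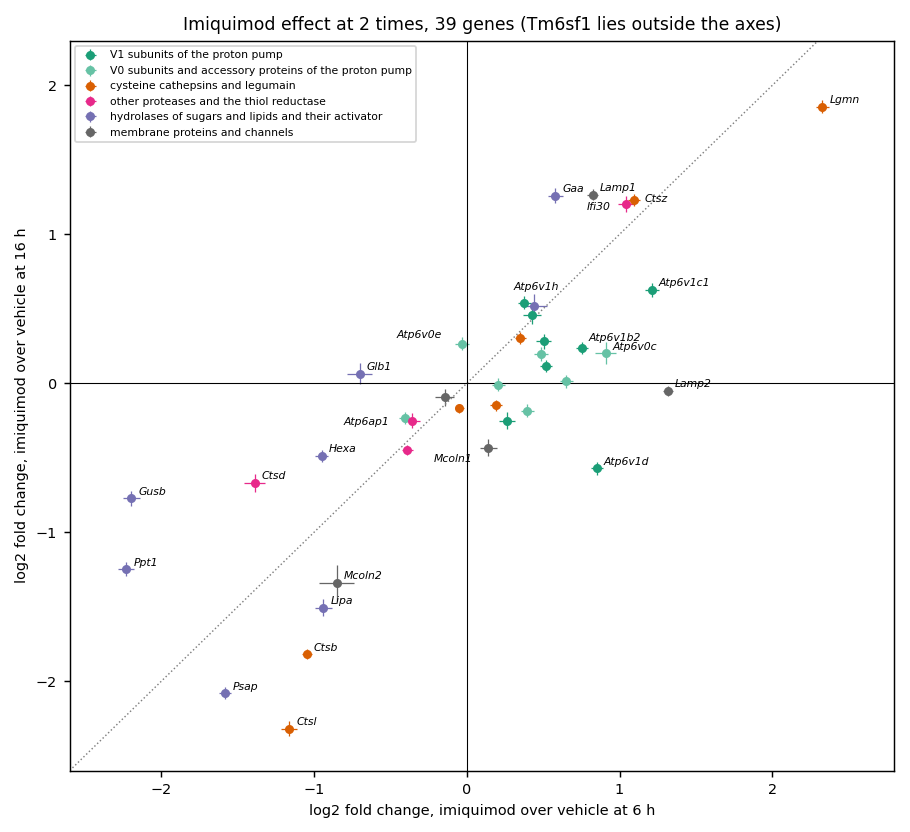
Log2 fold change of imiquimod over vehicle at 6 h (horizontal) and 16 h (vertical) for 39 members, coloured by role, with bars of 1 SE and a dotted line of equal effects. Tm6sf1 (-5.12 and -5.07) lies outside the axes. Lamp2 and Atp6v1d lie far below the line and Gusb and Ppt1 above it.

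The effect of imiquimod was tested for a difference between the times in 1 model. Of the 40 members, 32 (80%) had a called difference, against 56.9% of all tested genes. In 21 members the effect at 16 h was the lower and in 11 the higher, against 28.4% and 28.5% of all genes, and the median difference was -0.17. With library totals 19 were higher and 14 lower, and higher genes were 75.5% of all calls in place of 50.1%. On the TMM scale, 11 of the 15 pump genes had a lower effect at 16 h (6 V1 and 5 V0 or accessory genes), 3 a higher one and Atp6v1f was not called. With library totals 7 pump genes were lower, 4 higher and 4 not called. Hydrolases went the other way, with 5 of 8 higher on the TMM scale, Psap and Lipa lower and Neu1 not called. With library totals 6 hydrolases were higher and 2 lower.

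Cell type markers moved with imiquimod too. The summed level of 12 monocyte and macrophage markers was 109 to 111 CPM in imiquimod 6 h libraries and 301 to 353 CPM in vehicle 6 h libraries, and 48.5 to 58.3 CPM in imiquimod 16 h libraries and 298 to 308 CPM in vehicle 16 h libraries. Of the 7 markers tested, 4 were higher and 3 lower at 6 h, and 3 were higher and 3 lower at 16 h. Lyz2 and Csf1r carried the lower sum: Lyz2 averaged 32.6 CPM in imiquimod 6 h libraries and 171 CPM in vehicle 6 h libraries, and Csf1r averaged 21.4 CPM in imiquimod 6 h libraries and 119.9 CPM in vehicle 6 h libraries. The 4 markers that rose at 6 h were Fcgr1 (16.8 CPM with imiquimod and 0.369 CPM with vehicle), Cd14 (9.18 CPM with imiquimod and 4.10 CPM with vehicle), Ms4a7 (8.43 CPM with imiquimod and 5.51 CPM with vehicle) and C1qb (0.91 CPM with imiquimod and 0.41 CPM with vehicle). Adgre1, also on this list, averaged 18.5 CPM in imiquimod 6 h libraries and 28.4 CPM in vehicle 6 h libraries. C1qa averaged 0.195 CPM or less in every group, while C1qb averaged 3.18 CPM in imiquimod 16 h libraries and 1.13 CPM in vehicle 16 h libraries. The sum of 7 cDC1 markers was 530.1 to 557 CPM in imiquimod 6 h libraries and 1252 to 1267 CPM in vehicle 6 h libraries, and 501 to 536 CPM in imiquimod 16 h libraries and 1118 to 1156 CPM in vehicle 16 h libraries. All 7 were lower at 6 h and 6 of 7 at 16 h. For 6 cDC2 markers in the table it was 149.6 to 156 CPM in imiquimod 6 h libraries and 281 to 296 CPM in vehicle 6 h libraries, and 122 to 125 CPM in imiquimod 16 h libraries and 285 to 293 CPM in vehicle 16 h libraries. Cd209a, a cDC2 marker, averaged 0.52 CPM in imiquimod 6 h libraries and 23.1 CPM in vehicle 6 h libraries.

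The 12 pDC markers themselves summed to 6213 to 6456 CPM in imiquimod 6 h libraries and 7354 to 7512 CPM in vehicle 6 h libraries, and to 4382 to 4468 CPM in imiquimod 16 h libraries and 8975 to 9077 CPM in vehicle 16 h libraries. At 6 h 5 of them were higher and 7 lower, and at 16 h 1 was higher, 9 were lower and 2 were not called. The sum of 9 B cell markers was 172 to 185 CPM in imiquimod 6 h libraries and 108 to 119 CPM in vehicle 6 h libraries, and Pax5 alone averaged 112 CPM in imiquimod 6 h libraries and 18.9 CPM in vehicle 6 h libraries. Of the 6 B cell markers tested, 2 were higher and 4 lower at 6 h, and 1 was higher and 5 lower at 16 h. Cd79a, Cd79b, Ms4a1 and Ebf1 were lower at both times. Neutrophil, T or NK cell and erythroid lists each summed to 15.6 CPM or less in every library. The members lowered by imiquimod include genes that macrophages and conventional dendritic cells also express, and the part of these markers in the result was not tested.

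**Figure D5:**
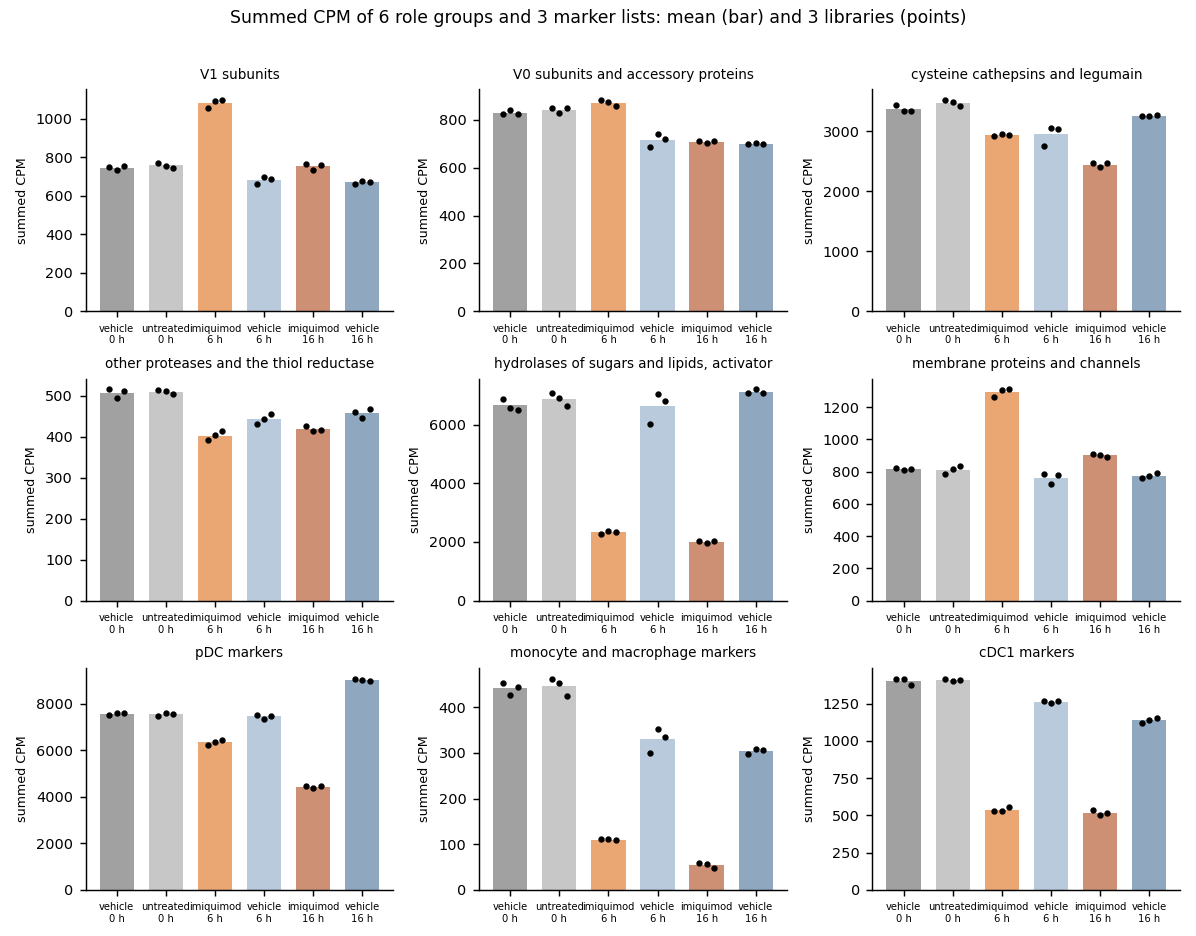
Summed CPM of the 6 role groups and of 3 marker lists in each group (mean as bar, 3 libraries as points). Hydrolases, dominated by Psap, are far lower in both imiquimod groups, the V1 sum is highest in imiquimod 6 h on this TMM scale, and the summed levels of the macrophage and cDC1 lists are also lower with imiquimod.

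Beyond the members, 103 other lysosome genes were in the table and 90 were tested. At 6 h 30 were higher with imiquimod and 49 lower (87.8% called, against 76.9% of all tested genes), with a median log2 fold change of -0.43. At 16 h 19 were higher and 52 lower (78.9% called, against 77.2% of all tested genes), with a median of -0.39. Among those with a mean of at least 10 CPM, Slc15a3, a lysosomal peptide and histidine transporter, had the highest change at both times (2.82, SE 0.04, and 2.45, SE 0.04). At 6 h it was followed by Cst7, the cathepsin inhibitor cystatin F (1.83, SE 0.11), and M6pr, the mannose 6-phosphate receptor that sorts lysosomal enzymes (1.76, SE 0.03). At 16 h it was followed by Cd63, a tetraspanin (1.41, SE 0.07), and Slc11a2, a metal transporter (1.28, SE 0.10). The lowest at 6 h were Sgsh, heparan sulfamidase (-4.51, SE 0.12), Naaa, an acid amidase (-2.74, SE 0.06), and Tpcn1, a cation channel of endosomes and lysosomes (-2.44, SE 0.09). At 16 h they were Naaa (-5.53, SE 0.09), Sgsh (-2.24, SE 0.08) and Fnip2, a folliculin partner (-2.21, SE 0.04). Other hydrolases split into 7 higher and 18 lower of 29 tested at 6 h, and 8 higher and 19 lower at 16 h. Of 4 other pump subunits tested, 3 were lower at 6 h and 4 at 16 h, none higher. The 10 other pump subunits in the table summed to 297 ± 7.17 CPM with imiquimod and 393 ± 11.4 CPM with vehicle at 6 h. At 16 h they summed to 287 ± 2.91 CPM with imiquimod and 445 ± 7.43 CPM with vehicle. Tfeb had log2 fold changes of 0.45 at 6 h and -0.40 at 16 h, both called, and Tfe3 of 0.61 at 6 h, called, and 0.04 at 16 h, not called.

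Members also changed with time in vehicle alone. At 6 h against 0 h, 4 members were higher and 22 lower with vehicle, 65% called, against 52.9% of all genes (26% higher and 26.9% lower). At 16 h against 0 h, 6 were higher and 22 lower, 70% called, against 58.4% of all genes (28.4% higher and 30% lower). Ctsc changed most. It had 132, 129 and 139 CPM in vehicle 6 h libraries and 138, 140.2 and 145 CPM in vehicle 16 h libraries, against 270.03, 267 and 272 CPM in vehicle 0 h libraries (-1.02, SE 0.04 and -0.93, SE 0.04). Later vehicle libraries lay below all vehicle 0 h libraries, so the rise of Ctsc with imiquimod was over a lowered vehicle, and its 172, 162 and 176 CPM in imiquimod 6 h libraries was below 0 h as well. Atp6v0c (-0.65, SE 0.07 and -0.58, SE 0.07), Atp6v1h (-0.55, SE 0.04 and -0.55, SE 0.04), Atp6ap2 (-0.31, SE 0.04 and -0.55, SE 0.05) and Lgmn (-0.50, SE 0.05 and -0.71, SE 0.05) were also lower with vehicle at 6 h and 16 h than at 0 h. The rises of these genes with imiquimod were therefore also over a lowered vehicle. Those of Atp6v1h at 6 h and of Atp6ap2 and Atp6v0c at 16 h were smaller than the vehicle's fall. Lgmn differed, with all imiquimod libraries above those of 0 h. Both vehicle comparisons share the vehicle 0 h libraries.

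Vehicle 0 h against untreated 0 h gave no call. None of the 40 members and none of the 14876 tested genes (0%) passed the edgeR adjusted p, the smallest of which was 0.980 among the members, and DESeq2's Wald test also called 0 genes. At an unadjusted p under 0.05 there were 4 members and 708 genes. The members' log2 fold changes lay between -0.13 and 0.14.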

How the data were processed

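Total RNA depleted of ribosomal RNA was sequenced from 18 libraries in 6 groups of 3, with a directional kit and paired reads, per the labels' protocols. The deposited table holds raw counts per gene, made by the authors. The submitters' processing notes name STAR and mm10, while the STAR version, counting program, strand setting and annotation release are not given in the sources used here.

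The members and lists were chosen with earlier results of these data known. Genes were filtered with filterByExpr at a minimum count of 10, which left 14876 of 54532, scaled by TMM and fitted with edgeR 4.0.16 (R 4.3.3) as a quasi-likelihood model of all 6 groups. Calls use a Benjamini-Hochberg adjusted p under 0.05 over all tested genes. The SE is the log2 fold change divided by the square root of F, and understates the error of large changes at low counts. DESeq2 1.42.0, other scalings, filters, fits and left-out libraries were alternatives. Every library is given for the 12 members with the largest absolute change among those called with a mean of at least 10 CPM. Among the other lysosome genes, the 3 highest and 3 lowest called at that mean are named. Exon lengths and overlaps come from GENCODE M21 (GRCm38), with the exons of all transcripts of a gene joined. Total counts per library were 10609741 to 13447018, and intervals from counting cover counting error only. No 2 libraries held identical values. The labels do not say that replicate numbers pair the samples, and the main fit used no pairing.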

Additional observations from a re-analysis of the deposited data

Results flagged for a closer look

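The imiquimod effect differed between 16 h and 6 h in 32 members by edgeR's test of the difference (adjusted p under 0.05), given here as the log2 effect at 16 h minus that at 6 h. Among the V1 subunits these were Atp6v1a (-0.40), Atp6v1b2 (-0.52), Atp6v1c1 (-0.58), Atp6v1d (-1.42), Atp6v1e1 (-0.22), Atp6v1g1 (-0.51) and Atp6v1h (0.17). Among the V0 and accessory genes these were Atp6v0a1 (-0.64), Atp6v0b (-0.58), Atp6v0c (-0.71), Atp6v0d1 (-0.22), Atp6v0e (0.30), Atp6ap1 (0.17) and Atp6ap2 (-0.29). Among the proteases these were Ctsb (-0.77), Ctsl (-1.15), Ctss (-0.34), Ctsh (-0.12), Ctsz (0.14), Lgmn (-0.47) and Ctsd (0.72). Among the hydrolases these were Gusb (1.42), Ppt1 (0.98), Glb1 (0.77), Gaa (0.68), Hexa (0.46), Lipa (-0.57) and Psap (-0.50). Among the membrane proteins these were Lamp1 (0.44), Lamp2 (-1.37), Mcoln1 (-0.57) and Mcoln2 (-0.49). With library totals in place of TMM the difference was higher for all 40 members, and 6 of these calls were lost: Atp6v1a (-0.067), Ctss (-0.0048) and Mcoln2 (-0.15), and, with the sign changed, Atp6v1e1 (0.11), Atp6v0d1 (0.12) and Atp6ap2 (0.048). Ctsh was then called in the opposite direction (0.22). It also made the difference more than 1.5 times smaller in size for Atp6v1b2 (-0.18), Atp6v1c1 (-0.25), Atp6v1g1 (-0.18), Atp6v0a1 (-0.30), Atp6v0b (-0.24), Atp6v0c (-0.37), Ctsb (-0.44), Lgmn (-0.14), Lipa (-0.23), Psap (-0.17) and Mcoln1 (-0.24). The difference became more than 1.5 times larger for Atp6v1h (0.50), Atp6v0e (0.63), Atp6ap1 (0.50), Ctsz (0.47), Hexa (0.80) and Lamp1 (0.78). Leaving out 1 library took the call from Ctsz in 9 of 12 cases (0.09 to 0.15), while without vehicle 6 h replicate 1 Ctsz lay at 0.22. Ctsh lost its call without vehicle 6 h replicate 2 (-0.083), imiquimod 6 h replicate 2 (-0.10) or imiquimod 16 h replicate 2 (-0.097). Atp6v1e1 lost it without vehicle 16 h replicate 2 (-0.16), Atp6v1h without vehicle 16 h replicate 1 (0.14), and Mcoln2 without vehicle 6 h replicate 3 (-0.38). All groups had 3 libraries, so no single library was named as outlying. Libraries of a group were compared in pairs by chi-square per degree of freedom. In vehicle 6 h it was 10.5 for replicates 1 and 2, 4.25 for 1 and 3, and 4.21 for 2 and 3. Untreated 0 h pairs had 1.88 to 4.21, and pairs of the other groups 1.32 to 2.56. Every effect at 6 h and every difference of effects uses the vehicle 6 h libraries.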

How the results depend on the processing

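Scaling by library totals in place of TMM moved the count of members higher with imiquimod at 6 h to 14, and the count with a higher effect at 16 h than at 6 h to 19. It changed the sign at 6 h of Atp6v1g1 (-0.086), Atp6v0d1 (-0.14), Ctss (-0.16) and Mcoln1 (-0.21). In the difference of effects it changed the sign of Atp6v1e1 (0.11), Atp6v0d1 (0.12), Atp6ap2 (0.048), Ctsc (0.29), Ctsh (0.22) and Ctsa (0.28). Library totals also moved the median of all genes to -0.39 at 6 h and to 0.33 in the difference. Psap in vehicle 6 h against vehicle 0 h was 0.074 without vehicle 6 h replicate 1 and -0.048 without replicate 2, and the cause was not tested. For vehicle 0 h against untreated 0 h, 1 gene was called with DESeq2 size factors, 1 with library totals, 5 with no expression filter, 4 when the other groups were left out of the fit, and 0 to 7 when a library was left out, none of them a member. With a library left out, members higher with imiquimod numbered 22 to 23 at 6 h and 15 to 16 at 16 h, and members lower 14 to 16 and 19 to 19. Members lower in vehicle 6 h than at 0 h numbered 16 to 20. Deviations from the group mean were correlated between libraries of different groups, for 5000 genes. Same-numbered libraries had a median r of 0.002 over 45 pairs (-0.40 to 0.18). Libraries of different number had a median r of 0.0009 over 90 pairs (-0.29 to 0.43). With 3 libraries per group, each set against its own group mean, these values cannot exclude a pairing. A fit with the replicate block gave 23 members higher and 15 lower at 6 h, 16 and 19 at 16 h, 10 and 21 in the difference of effects, 4 and 22 for vehicle 6 h and 6 and 21 for vehicle 16 h. In that fit Ctsz lost its call in the difference (0.14, edgeR adjusted p = 0.0625).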
